A study of Mus musculus with 7 samples.

Results

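The Six-family and Eya-family genes described here are 5 homeobox genes, Six2, Six3, Six4, Six5 and Six6, and 4 genes of the Eya coactivators, Eya1, Eya2, Eya3 and Eya4. They were chosen by name, with earlier results of these data known. They are 9 of the 23366 gene symbols in the deposited count files, and each had 1 entry in both files. The measurement is the number of H3K27me3 chromatin immunoprecipitation reads over the whole body of each gene in spermatocytes of wild-type CD1 mice at postnatal day 17 (P17) and postnatal day 12 (P12). The cells of both stages came from testes digested with trypsin and collagenase and enriched on percoll, so cells of other testis types may remain, and the number of animals is not given in the sources used here. The P17 file pools 2 replicates and the P12 file holds 1 replicate, per the labels, so that each stage is a single set of counts with no replicate error. The files hold 26664736 reads at P17 and 13462873 reads at P12.

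Six-family proteins are DNA-binding factors of the sine oculis family, and Eya proteins bind to them, enter the nucleus with them and act as transcriptional coactivators that also carry a phosphatase domain. With Pax and Dach proteins they form a network that is used again in eye, ear, kidney and muscle progenitors. H3K27me3 is the histone mark that Polycomb repressive complex 2 lays down over silenced developmental genes, and the study's title names the repression of soma-specific genes by this complex in male germ cells as its subject. The comparison below asks how much of the mark lay over each Six-family and Eya-family gene at P17 against P12.

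All 5 Six-family genes held a larger share of H3K27me3 reads at P17 than at P12, and the Eya genes stayed near the typical gene. Read counts were scaled to the file total and are given as reads per 1000000 (CPM). The ratio of the scaled counts, P17 over P12, is given on the log2 scale with an exact 95% interval that covers counting error only. Because no replicates can be compared, no p-value was computed, and the ratios compare 2 files rather than the stages. The 21808 genes with at least 20 reads over both files serve as background, with a median log2 ratio of -0.08, and the central 80% of them lie between -0.34 and 0.47. Scaling by edgeR's TMM factors or by median-of-ratios factors would add 0.08 to every ratio, the all-gene median included, so the sign of a ratio between -0.08 and 0 depends on the scaling. A gene is called above or below the typical gene here when its whole interval lies above or below that median. This held for 21.2% and 10.1% of genes. With many reads the interval is narrow, so a gene can pass at a smaller ratio than one with few reads. All 5 Six-family genes were above the typical gene, as was Eya1. Eya2 was below it, and the intervals of Eya3 and Eya4 spanned it. A gene counts as over 2-fold higher when its ratio exceeds 2 and its interval excludes 1. This held for 2.57% of all genes and for 1 of the 9 members, Six5, and the opposite call held for 0.335% of all genes and for 0 of the 9.

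Among the Six-family genes, Six5 had the highest ratio. Six5, first known as the gene next to the myotonic dystrophy kinase gene, held 459 reads or 17.2 CPM at P17, against 87 reads or 6.46 CPM at P12. Its log2 ratio was 1.41 (interval 1.08 to 1.76), a 2.65-fold difference, and 219 of the 21808 genes had a higher ratio. The counting intervals of its levels, 15.7 to 18.9 CPM at P17 and 5.18 to 7.97 CPM at P12, did not overlap. It also rested on fewer reads than any other member at both stages.

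Six4, which is expressed with its relatives in muscle and sensory progenitors and acts in the early gonad, held 2317 reads or 86.9 CPM at P17, against 665 reads or 49.4 CPM at P12. The log2 ratio of Six4 was 0.81 (0.69 to 0.94), 1.76-fold. Six6, a factor of retina, pituitary and hypothalamus, held 2019 reads or 75.7 CPM at P17, against 702 reads or 52.1 CPM at P12. For Six6 the log2 ratio was 0.54 (0.41 to 0.66), 1.45-fold, so Six4, Six5 and Six6 lay above the 90th percentile of all genes.

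Six2, which keeps nephron progenitors undifferentiated in the kidney, held 2681 reads or 100.5 CPM at P17, against 1009 reads or 74.9 CPM at P12. Its log2 ratio was 0.42 (0.32 to 0.53), 1.34-fold. Six3, needed for the forebrain and the eye, held 2832 reads or 106 CPM at P17, against 1177 reads or 87.4 CPM at P12. The Six3 ratio was the lowest of the Six-family genes at 0.28 (0.18 to 0.38), 1.21-fold, and still exceeded that of 83.5% of all genes. The intervals of the P17 and P12 levels did not overlap for any Six-family gene. In bulk chromatin, more cells carrying a mark and more mark per cell cannot be told apart. Without the input libraries, which were not analysed here, stronger enrichment over background in the P17 pool and a stage difference cannot be told apart either.

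**Figure D1:**
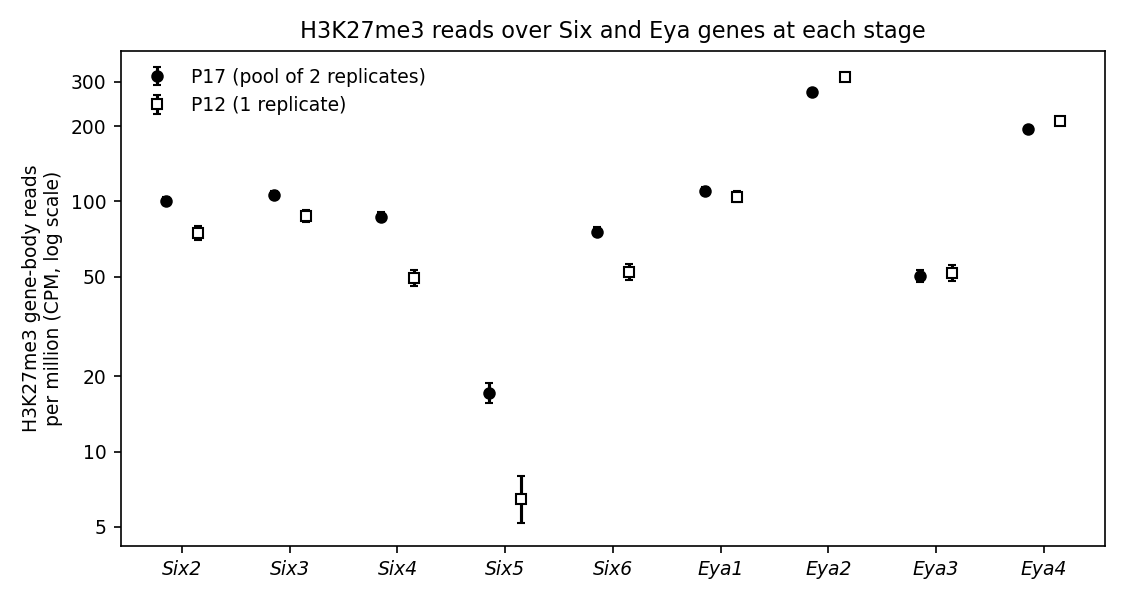
H3K27me3 gene-body reads per 1000000 (CPM, log axis) for each Six-family and Eya-family gene, at P17 (filled circles, pool of 2 replicates) and P12 (open squares, 1 replicate), with exact 95% Poisson intervals of the counts. The P17 point lies above the P12 point for all 5 Six-family genes, by the widest step for Six5 at 17.2 against 6.46 CPM, while Eya2 lies lower at P17, at 275 against 315 CPM.

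The 4 Eya genes stayed close to the typical gene. Eya1, whose human counterpart is mutated in branchio-oto-renal syndrome, held 2926 reads or 109.7 CPM at P17, against 1405 reads or 104 CPM at P12. Its log2 ratio was 0.07 with an interval of -0.02 to 0.17, which includes no change but lies above the all-gene median. Of the 21808 genes, 6542 had a higher ratio than Eya1. Eya3, known from the seasonal thyrotropin response of the sheep pituitary, held 1344 reads or 50.4 CPM at P17, against 697 reads or 51.8 CPM at P12. The Eya3 ratio of -0.04 (-0.17 to 0.10) could not be told from no change at this depth, and it stood at 0.04 when edgeR's TMM factors or median-of-ratios factors replaced the file totals.

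Eya4, a gene of inner-ear hearing function in humans, held 5174 reads or 194 CPM at P17, against 2823 reads or 209.7 CPM at P12. The Eya4 ratio was -0.11 (-0.18 to -0.05). Eya2, expressed in placodes and somites of the embryo, held 7328 reads or 275 CPM at P17, against 4247 reads or 315 CPM at P12. Its ratio of -0.20 (-0.25 to -0.14) was 0.871-fold, and it was the lowest of the 9 members, yet it was within the 10th to 90th percentile range of all genes. Levels are not set in order between genes here, since a whole-gene count grows with gene length and no lengths of the files' genome build were used.

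The order of the ratios separated the families without overlap, from Six5, Six4, Six6, Six2 and Six3 down to Eya1, Eya3, Eya4 and Eya2. Gene lengths were not used, and their part in this order was not tested. In each of the 20 pairs of a Six-family gene with an Eya gene, the exact 95% interval of the difference in log2 ratio excluded 0. The closest such pair was Six3 and Eya1, with a difference of 0.21 (0.07 to 0.34). Neighbours in the order that did not differ beyond counting error were Six6 and Six2 (0.11, -0.05 to 0.28), Six2 and Six3 (0.14, -0.0019 to 0.29), Eya1 and Eya3 (0.11, -0.05 to 0.27), and Eya3 and Eya4 (0.07, -0.08 to 0.22). Six5 exceeded Six4 by 0.60 (0.24 to 0.97) and Six4 exceeded Six6 by 0.28 (0.10 to 0.46). Of all 36 pairs, with intervals not adjusted for their number, 32 excluded 0.

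**Figure D2:**
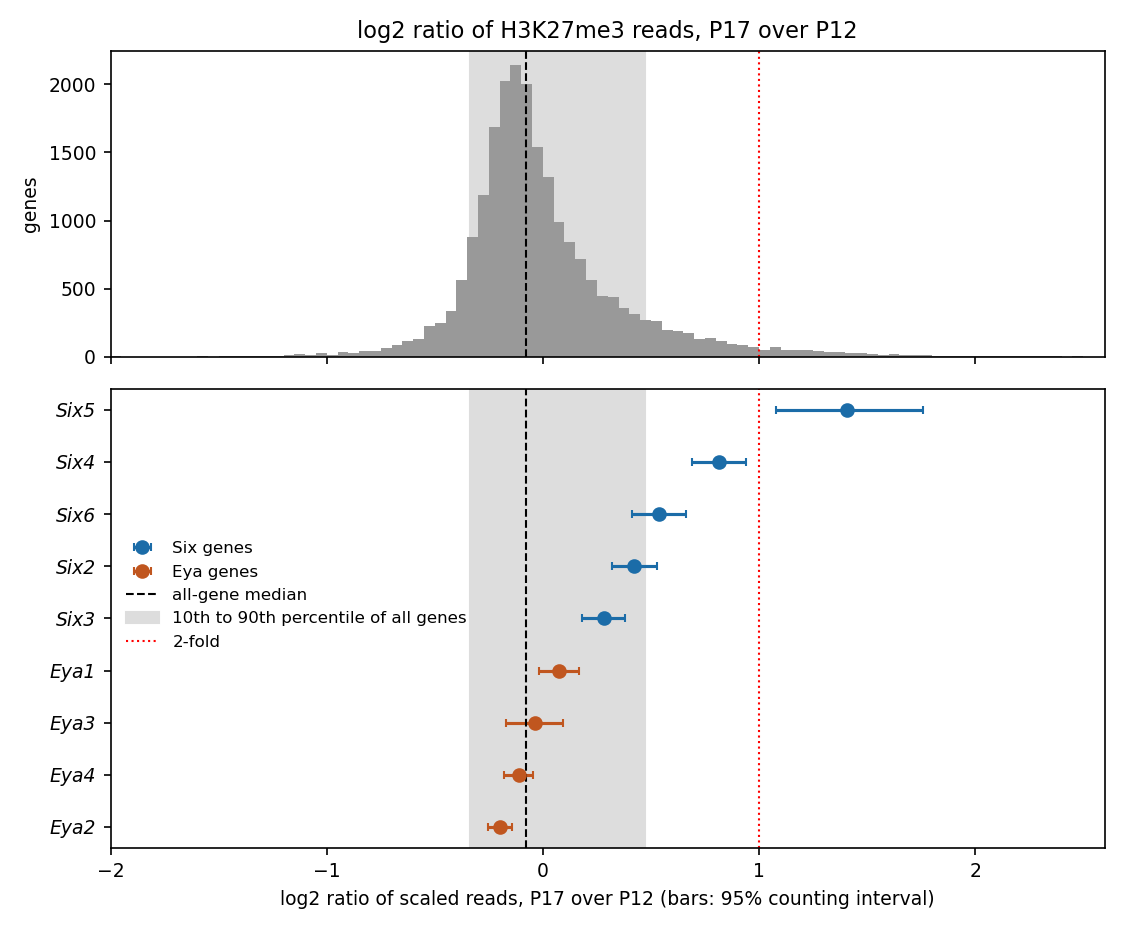
Histogram of the log2 ratio of scaled H3K27me3 reads, P17 over P12, for the 21808 genes with at least 20 reads (upper panel), and the 9 Six-family and Eya-family genes with exact 95% counting intervals (lower panel). The dashed line is the all-gene median of -0.08, the grey band the 10th to 90th percentile range and the dotted line a 2-fold difference. The 5 Six-family genes lie to the right of the 4 Eya genes, and Six5 alone lies beyond 2-fold.

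Summed over each family, the 5 Six-family genes held 10308 reads or 387 CPM at P17, against 3640 reads or 270.4 CPM at P12. Their summed log2 ratio was 0.52 (0.46 to 0.57). The 4 Eya genes held 16772 reads or 629 CPM at P17, against 9172 reads or 681 CPM at P12, a ratio of -0.12 (-0.15 to -0.08). The Six-family genes thus took 38.1% of the reads of the 9 genes at P17, against 28.4% at P12. The difference between the families was 0.63 on the log2 scale (0.56 to 0.70). That interval covers counting error of the summed reads, not the spread between the genes of a family. Leaving out Six4 gave 0.55 and leaving out Six3 gave 0.73. The median over the 9 single-gene ratios was 0.28, over the Six-family genes 0.54 and over the Eya genes -0.08, beside -0.08 over all genes; under median-of-ratios factors the Eya median was 0.0035.

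Promoter windows of some members are shown because promoters rich in CpG, a C followed by a G, are known sites of Polycomb binding in mammals. RefSeq windows (GRCm38.p6) were given for 7 of the 9 members, all but Eya1 and Eya2. Those of Six5, Six2 and Six6 and the first of Eya4 are printed below, and those of Six3, Six4 and Eya3 are not. The coordinates below are GRCm38 and are not those of the read counts, which were made on mm9. Each line holds the 250 bases before the start of transcription, 5′ to 3′ on the gene's strand, with every CpG in capitals.
Six5 (chr7:19094294-19094543, plus strand): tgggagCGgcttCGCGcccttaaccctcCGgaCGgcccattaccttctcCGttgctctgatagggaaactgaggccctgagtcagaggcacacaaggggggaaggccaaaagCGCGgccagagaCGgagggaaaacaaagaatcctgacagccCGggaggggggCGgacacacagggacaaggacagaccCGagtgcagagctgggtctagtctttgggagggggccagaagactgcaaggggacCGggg
Six2 (chr17:85688255-85688504, minus strand): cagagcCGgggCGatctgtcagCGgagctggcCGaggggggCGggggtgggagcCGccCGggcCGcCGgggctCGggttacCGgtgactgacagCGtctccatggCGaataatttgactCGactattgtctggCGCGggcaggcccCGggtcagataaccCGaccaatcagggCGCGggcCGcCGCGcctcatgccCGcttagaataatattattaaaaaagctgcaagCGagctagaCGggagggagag
Six6 (chr12:72939632-72939881, plus strand): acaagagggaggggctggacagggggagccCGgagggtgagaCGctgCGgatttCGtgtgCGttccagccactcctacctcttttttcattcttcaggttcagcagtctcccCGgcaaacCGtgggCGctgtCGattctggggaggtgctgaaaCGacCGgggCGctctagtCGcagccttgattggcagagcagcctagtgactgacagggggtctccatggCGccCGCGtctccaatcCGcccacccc
Eya4 (chr10:23349944-23350193, minus strand): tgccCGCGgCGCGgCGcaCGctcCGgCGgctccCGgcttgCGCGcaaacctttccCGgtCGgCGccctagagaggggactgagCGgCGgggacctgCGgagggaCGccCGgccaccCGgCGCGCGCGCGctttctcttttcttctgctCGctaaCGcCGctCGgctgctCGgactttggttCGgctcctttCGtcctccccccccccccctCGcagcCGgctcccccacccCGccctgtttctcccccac

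In the 300 base windows, which run from 250 bases before to 50 after the start, Six2 held 37 CpG, a number that 5.58% of all 32851 windows reached. The first of the Eya4 windows held 36, which 6.23% reached, and Eya3 held 25, which 18.4% reached. Counts were lower in Six6 (20), Six5 (17), Six4 (16 in the first window and 15 in the second) and Six3 (14, which 36.3% reached). All of these exceeded the median window, which held 7. The CpG number did not order the genes as the ratio did: Six5, with the highest ratio, held 17, and Eya4, with a ratio of -0.11, held 36. Over all genes with a window, the median log2 ratio moved little with CpG number, at -0.10 for the 4543 genes with 25 or more and -0.04 for the 1544 genes with 10 to 14. The share over 2-fold higher differed more, at 1.23% of genes with 0 to 4 CpG, 4.08% with 10 to 14, 3.52% with 15 to 19, the class of Six5, and 2.07% with 25 or more. The letters TCAGGTT, the core of the MEF3 element that Six-family proteins bind in muscle genes, were searched on both strands. They occurred in the first of the Six4 windows but not the second, in the Six6 window, and in 4.07% of all windows. A match says only that these letters are present.

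Of 6 genes listed beside the Six-family genes, 5 had intervals that spanned the typical gene. The order of genes was read from the GRCm38 gene table, for names only. Six5 at 1.41 stood beside Dmpk, the myotonic dystrophy protein kinase gene, at 0.09 (-0.21 to 0.40), with 287 reads at P17 and 136 at P12. The difference, Six5 minus Dmpk, was 1.32 (0.86 to 1.78). On its other side Six5 overlaps Bhmg1 in that table, a gene not analysed here, so reads counted for Six5 may lie in both genes. Among the genes analysed, Fbxo46 came next on that side at -0.22 and, beyond Dmpk, Dmwd stood at -0.10, with differences from Six5 of 1.64 (1.20 to 2.08) and 1.52 (0.98 to 2.05).

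Six4 overlaps Mnat1, a gene of a cyclin-dependent kinase assembly factor, in that table, so reads in the overlap may have counted for both. Mnat1 held 83.4 CPM at P17, against 87.1 CPM at P12, a log2 ratio of -0.06, 0.88 below that of Six4 (interval of the difference 0.71 to 1.04, which takes the counts as independent although they may share reads). Next to Six6 lies 4930447C04Rik, also known as Six6os1, which encodes a synaptonemal complex protein of meiotic cells. It held 19.9 CPM at P17, against 23.4 CPM at P12, a ratio of -0.23 (-0.44 to -0.03), and Six6 exceeded it by 0.77 (0.53 to 1.01).

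Six3 overlaps the noncoding gene Six3os1, and chromatin reads do not tell the strands apart. Six3os1 held 174 CPM at P17, against 157 CPM at P12, a ratio of 0.16 (0.08 to 0.23), beside 0.28 (0.18 to 0.38) for Six3. Since these counts may share reads, no difference is read from them. Six3os1 was the 1 neighbour of the 6 above the typical gene, and 0 were below it, beside 21.2% and 10.1% of all genes.

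**Figure D3:**
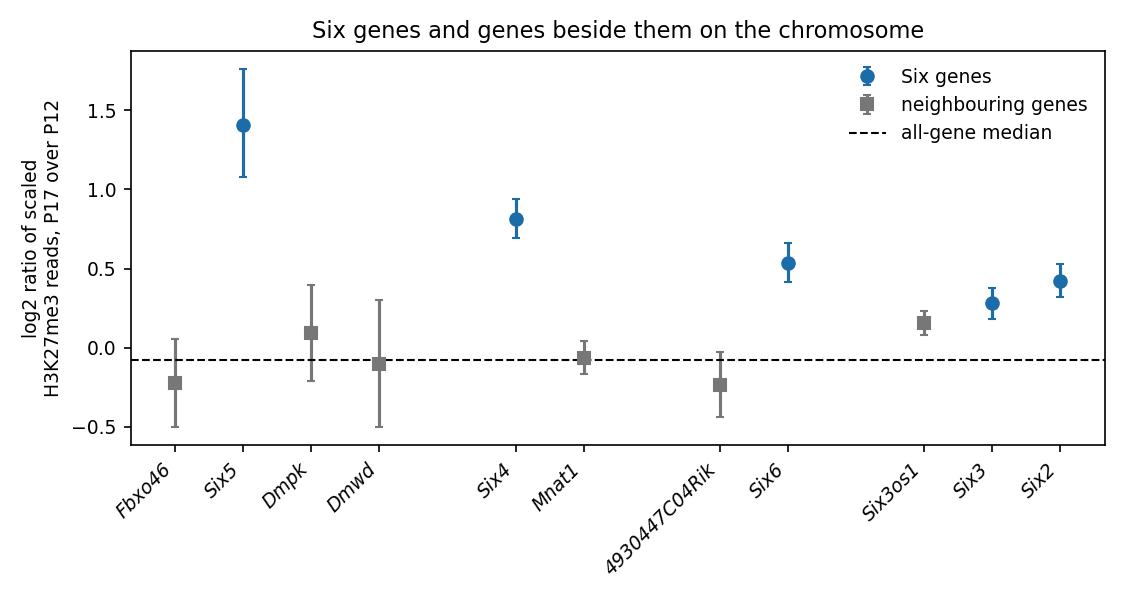
Log2 ratio of scaled H3K27me3 reads, P17 over P12, for 5 Six-family genes (circles) and 6 genes beside them (squares), each group drawn in a row, with exact 95% counting intervals and the all-gene median as a dashed line. Six5 at 1.41 stands apart from Dmpk at 0.09, and Six3 is drawn at 0.28 beside its overlapping gene Six3os1 at 0.16.

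Genes of proteins that act with the Six-family and Eya-family proteins gave a mixed picture. Of 14 genes on this list, 5 were above the typical gene and 1 below, with a median log2 ratio of -0.03. Of all genes, 21.2% were above and 10.1% below. Dach1 and Dach2, corepressor partners of the network, held 223 and 115 CPM at P17, against 234 and 125 CPM at P12, with ratios of -0.07 and -0.12 that spanned the typical gene. The relative Ski stood at 0.17 (0.06 to 0.28), and Sobp, which encodes a Six-binding protein of the inner ear, at 0.23 (0.16 to 0.31). Among the Groucho corepressors that Six3 and Six6 recruit, Tle3 stood at 0.73 (0.61 to 0.86), Tle2 at 0.36 (0.14 to 0.59), Tle1 at -0.20 (-0.33 to -0.07) and Tle4 at -0.24 (-0.34 to -0.14). The short Groucho relative Aes was the 1 gene of the list over 2-fold higher, at 1.10 (0.80 to 1.42), with 17.1 CPM at P17, against 7.95 CPM at P12.

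Genes that act beside the Six-family and Eya-family proteins in the organs they build were mostly above the typical gene. The same call held for 21.2% of all genes, and the call below it for 10.1%. Both calls depend on read number as well as ratio. These shares include genes with few reads and are not matched to the lists. Among 14 kidney progenitor genes the median was 0.29, with 9 above and 1 below. Gdnf, the ureteric bud signal that lies downstream of Eya1 in the kidney, held 93.5 CPM at P17, against 59.4 CPM at P12, a ratio of 0.65, with Wt1 highest at 0.77 and Meox1 lowest at -0.26. The 12 eye field genes had a median of 0.33, with 10 above and 1 below. Their range ran from Mitf, the pigment cell factor, at -0.16 to the eye gene Mab21l2 at 1.35 (1.10 to 1.62), the 1 gene of this list over 2-fold higher.

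Of 11 muscle progenitor genes (median 0.39), 9 were above and 1 below, beside 21.2% and 10.1% of all genes. The myogenic factor Myf5 stood at 1.06 (0.77 to 1.37), over 2-fold higher with 18.2 CPM at P17, against 8.69 CPM at P12, while the growth factor receptor gene Met stood at -0.18. The myogenic genes Myod1 and Myog, the second of which has a MEF3 site in its promoter, stood at 0.48 and 0.55. The 12 ear and placode genes had a median of 0.25, with 11 above and 0 below, from Sox3 at -0.05 to Neurod1 at 0.84. In the gonad determination list of 10 genes, 6 were above and 1 below, with a median of 0.43. Nr5a1, a master gene of gonad formation, held 111 CPM at P17, against 72.2 CPM at P12, a ratio of 0.62. Zfpm2, a Gata cofactor needed for testis determination, stood at -0.15 (-0.21 to -0.10), Sox9 highest at 0.93 and Nr0b1 lowest at -0.30 on 40 and 25 reads.

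Set beside other developmental families, the Six-family genes had a median of 0.54, against 0.25 for 9 Dlx and Msx genes, 0.16 for 12 LIM homeobox genes and 0.05 for 9 Pax genes. No gene of these 3 families was over 2-fold higher, a call that held for 2.57% of all genes, so lists this short may well hold none. Their highest ratios were those of Isl2 at 0.74, Dlx6 at 0.59 and Pax1 at 0.35, and their lowest those of Pax4 at -0.45, Lmx1a at -0.09 and Msx2 at 0.09. These medians are descriptions of 2 files, and the difference between families was not tested.

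**Figure D4:**
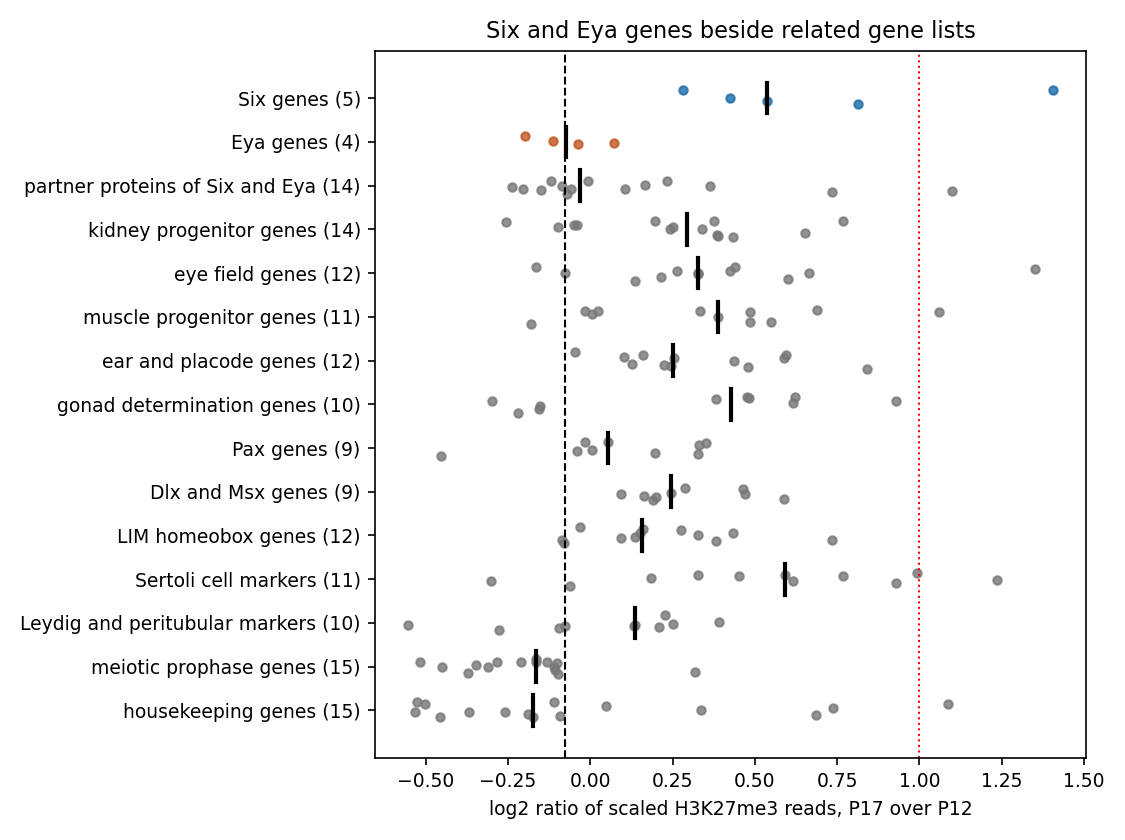
Log2 ratio of scaled H3K27me3 reads, P17 over P12, for each gene of 15 lists (points, number of genes in brackets; black bars are list medians), with the all-gene median as a dashed line and 2-fold as a dotted line. The Six-family genes have a median of 0.54 and the Eya genes one of -0.08, near that of all genes.

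Marker genes of other testis cells also differed between the files, and their part in the Six-family result was not tested. The files count chromatin reads, not RNA, so they do not show which cell types were present. Of all genes, 21.2% were above the typical gene and 10.1% below. Of 11 Sertoli cell markers 7 were above the typical gene and 0 below, with a median of 0.59, from Gata1 at -0.30 to Vim at 1.23, and a summed level of 579 CPM at P17, against 402 CPM at P12. Of 10 Leydig and peritubular markers 4 were above and 1 below (median 0.13, from Star at -0.55 to Pdgfra at 0.39; 400.0 CPM at P17 against 359.7 CPM at P12). For 15 meiotic prophase genes, active in spermatocytes, 1 was above and 5 below (median -0.17, from Sycp3 at -0.52 to Rec8 at 0.32; 318 CPM at P17 against 370.3 CPM at P12). Of 15 housekeeping genes 3 were above and 3 below, with a median of -0.17, from B2m at -0.53 to Gusb at 1.09. The lists share some genes, such as Wt1, Sox9 and Gata4, so their counts are not independent.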

How the data were processed

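Chromatin reads of spermatocytes were aligned to mm9, and Bowtie, SAMtools and HTSeq are named without role or version, per the submitters' processing notes. The deposited files hold raw read counts per gene body, which the file names tie to multiBamCov. The authors deposited them unnormalized, and no header or label records that input was subtracted. Of 7 samples, 2 H3K27me3 count files were used. The deposited peak lists carry mm9 coordinates and were not used here, since the gene tables at hand were GRCm38. No reads per length were computed, for the same reason.

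Of 23530 entries, the 146 symbols with several entries contributed to the totals only. Ratios used 1 added read, adjusted for library size, and a minimum of 20 reads. Intervals are exact conditional (Clopper-Pearson) for ratios, exact conditional odds-ratio intervals for differences and exact Poisson for levels, all at 95%. They cover counting error only, since each stage is a single set of counts. Reads were not counted by molecular identifiers, so the intervals may be too narrow. Scaling alternatives came from edgeR 4.0.16 and DESeq2 1.42.0, other work from Python 3.11.15 and scipy 1.17.1. The calculations were tested on simulated Poisson counts, which hold no replicate spread. That checks the calculation, not whether the intervals hold for these libraries. The members and lists were chosen with earlier results of these data known. Genes named from the lists were the highest and lowest ratio with at least 50 reads, the called partners and neighbours, and the other neighbours and a few of known role (Dach1, Dach2, Tle1, Gdnf, Myod1, Myog, Nr5a1 and Zfpm2), which were chosen after their values were seen. A result that the rule on likeness would have named for Six6 is left out.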

Additional observations from a re-analysis of the deposited data

How the results depend on the processing

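The count of members above the typical gene (6) and over 2-fold higher (1) was the same under each alternative run: edgeR TMM factors, DESeq2 median-of-ratios factors, totals without symbols that have several entries, minimum reads of 1 or 100, and pseudocounts of 0.1 or 5. TMM and median-of-ratios factors moved the all-gene median to -0.0020 and 0.0015, the Eya median to 5.6e-05 and 0.0035, Eya2 to -0.12 under both and Eya4 to -0.04 and -0.03. Leaving out Six2, Six4, Six5 or Six6 moved the median of the 9 members to 0.18 in each case. The Six-family minus Eya difference was 0.73 without Six3, 0.55 without Six4 and 0.56 without Eya2. The number of all genes over 2-fold lower was 73 with at least 20 reads, 3 with at least 100 reads and 35 with a pseudocount of 5. The CpG observed over expected value of Six2 was 1.13 over 300 bases and 1.02 over the upstream 250. Peak alternatives were not run, since peaks were not tied to genes. No paired analysis was possible because each stage is a single file. With 87 reads at P12, Six5 had the widest interval of the 9 members.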

Other observations

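For 8 of the 9 members, the gene with the closest pair of levels at P17 and P12 was taken among genes with at least 200 reads, by Euclidean distance in log2 CPM over the 2 libraries. Likeness over 2 libraries reflects level and ratio only. Six5 lay closest to Grn, the progranulin gene, at 17.3 CPM at P17 and 6.76 CPM at P12 (distance 0.0652), and Six4 to Bcan, which encodes the brain matrix protein brevican, at 87.1 and 47.4 CPM (0.0599). The nearest genes were Epb4.9 for Six2 and Phf21b for Six3. They were Pepd for Eya1, Itpr2, a calcium release channel gene, for Eya2, Epn2 for Eya3 and A330093E20Rik for Eya4.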
